A study of Homo sapiens with 8 samples.

Results

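Integrins and other adhesion molecules are the surface and matrix proteins by which a myeloma cell holds on to bone marrow stroma, endothelium and its neighbours. The set described here held 39 genes, found by their symbols among the 18564 genes of the expression table, and comprised 17 integrin alpha chains, 6 integrin beta chains, 9 immunoglobulin-fold receptors, 2 cadherins, 3 other surface molecules and 2 matrix proteins. It was drawn up by function, with one of its genes, PECAM1, already known to be higher in bortezomib-resistant cells, so that the comparison of resistant with parental cells is given as a description, and nothing is read from its counts of calls. RNA came from LP-1, an established human multiple myeloma line, in its parental (WT) form and in a bortezomib-resistant (BR) form that the labels describe as cultured with the proteasome inhibitor for 2 months. WT and BR cells received vehicle (DMSO, which the labels of the WT vehicle libraries call untreated) or SI-2, which inhibits the transcriptional coactivator SRC-3, at 25 nM for 24 h. Each of the 4 conditions had 2 libraries, numbered 1 and 2, for 8 in all, and BR and WT were each 1 line in the same serum-containing medium. The labels do not say whether libraries came from separate cultures, so p-values measure the spread between these libraries, which may be technical.

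Integrins are pairs of 1 alpha and 1 beta chain, and the pair decides which ligand is bound. The alpha 4 chain with beta 1 or beta 7 binds VCAM1, MAdCAM-1 and fibronectin, and these pairs are the classical route by which plasma cells adhere to stroma and to gut endothelium. Immunoglobulin-fold receptors such as PECAM1 and the ICAMs join leukocytes to endothelium, and cadherins join like cells through their own extracellular domains.

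Depth was even, with 17997771 to 18570027 estimated counts per library. The lines carried plasma cell transcripts in every library (summed FPKM of 9 markers, 1204 to 1996), although the labels name the cells B lymphoblasts, and the B cell markers MS4A1, PAX5 and CD22 reached at most 2 counts. SLAMF7 was the lowest of the plasma cell markers, at 15.2 to 27.7 counts. One library stood apart. BR SI-2 replicate 2 held all 7 stroma markers above every other library (summed FPKM 28.1 against 0.07 to 0.16), with 1032 counts of COL1A1 and 998 of COL3A1 where the other 7 libraries had at most 6 and 5. All 4 epithelium markers were also highest there (summed FPKM 6.97 against 2.33 to 3.13). So were 3 of 7 endothelium markers, 3 of 3 T and NK cell markers and 1 of 5 myeloid markers, but on few counts. Of these VWF had 17 counts against 0 or 1, and the others had 2 to 8 against at most 4. The fold changes that rest on this library and the calls it enters are given below with and without it, or beside the values per library. The part of these other transcripts in them was not tested.

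The RefSeq promoter windows of the members that carried the calls between libraries are shown first, because the transcript table assigns the reads of one of them, CDH2, to 2 starts far apart. These are the 250 bases before the start in RefSeq (GRCh38.p14, whereas the submitters' processing notes name hg19), all on the minus strand and read 5′ to 3′. Windows were found for 28 of the 39 members and were not found for PECAM1, among others. Capitals mark motifs searched on both strands, of which matches of the GC box overlap one another in ITGA8 and MCAM. The TATA box was searched as TATAAA. The GC box was searched as GGGCGG. The E-box was searched as CAGGTG, and the CCAAT box by the letters of its name.
CDH2, upstream start, chr18:28177131-28177380: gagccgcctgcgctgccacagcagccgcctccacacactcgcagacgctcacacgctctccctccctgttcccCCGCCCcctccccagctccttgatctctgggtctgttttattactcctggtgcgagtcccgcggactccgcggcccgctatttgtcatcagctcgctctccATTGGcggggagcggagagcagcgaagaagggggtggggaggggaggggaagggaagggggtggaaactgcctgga
CDH2, internal start, chr18:28036642-28036891: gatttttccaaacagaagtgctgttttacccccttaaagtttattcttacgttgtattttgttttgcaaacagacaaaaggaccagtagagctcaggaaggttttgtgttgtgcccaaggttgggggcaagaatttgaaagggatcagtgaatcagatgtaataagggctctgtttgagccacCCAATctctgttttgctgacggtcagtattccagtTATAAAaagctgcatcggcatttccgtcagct
ITGA8, chr10:15719923-15720172: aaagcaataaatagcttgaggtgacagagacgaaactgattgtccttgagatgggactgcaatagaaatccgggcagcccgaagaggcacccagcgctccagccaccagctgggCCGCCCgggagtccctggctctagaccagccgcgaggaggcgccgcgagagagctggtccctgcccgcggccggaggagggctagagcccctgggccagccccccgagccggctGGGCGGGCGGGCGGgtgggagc
MCAM, chr11:119317131-119317380: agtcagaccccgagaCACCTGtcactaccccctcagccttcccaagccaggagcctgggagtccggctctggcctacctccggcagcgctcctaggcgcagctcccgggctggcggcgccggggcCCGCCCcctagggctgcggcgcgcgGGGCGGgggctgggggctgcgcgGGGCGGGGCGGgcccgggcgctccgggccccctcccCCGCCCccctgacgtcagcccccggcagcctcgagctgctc
The upstream CDH2 window had 66.0% G and C, 1 GC box and 1 CCAAT box, whereas the internal window, 140 kb further into the gene, had 42.0% G and C, no GC box, 1 CCAAT box and 1 TATA box. The windows of ITGA8 and MCAM had 4 and 5 GC boxes and no TATA box, and that of MCAM also had 1 E-box. Of 35116 such windows of all genes, 42.6% held a GC box, 32% a CCAAT box, 17.5% the E-box and 10.7% a TATA box, so that the TATA box of the internal CDH2 start was the least common of these features. A match describes letters only.

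Levels were set against each other by FPKM, which divides a count by transcript length and library size. ITGB7, the beta chain of the alpha 4 beta 7 and alpha E beta 7 integrins, was by far the highest member at a mean of 653 FPKM, rank 94 of all genes. Its 8 libraries lay between 443 and 872 FPKM and did not overlap those of the next member, SELPLG (59.0 to 90.1 FPKM), which encodes the selectin ligand PSGL-1 and stood at rank 1022. ICAM1 (32.5 to 51.7 FPKM), the endothelial and leukocyte ligand of LFA-1, ITGB5 (28.7 to 50.9) and ITGB1 (28.8 to 40.6) followed and overlapped one another. CD44, a hyaluronan receptor, ICAM2, CD47, the ligand of SIRP alpha on macrophages, CDH2 (N-cadherin) and ITGAX completed the 10 highest, with mean FPKM from 24.9 down to 18.3. In all, 15 members had a mean above 10 FPKM and 16 a mean below 1.

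The alpha chains that could pair with beta 7 were less abundant than beta 7 itself. ITGA4 ranged from 15.1 to 21.5 FPKM, so that mean ITGB7 FPKM was 37.2 times that of ITGA4, and ITGAE ranged from 1.20 to 2.25 FPKM. ITGB1 can also pair with the laminin receptors ITGA6 (5.04 to 10.9 FPKM), ITGA7 (1.54 to 3.66) and ITGA3 (0.59 to 1.12), with the RGD receptor ITGA8 (6.59 to 15.9) and with ITGAV (2.70 to 3.93), the last of which also pairs with ITGB5 and ITGB8 (5.05 to 7.65). The fibronectin receptor chain ITGA5 was at 0 or 1 count in 7 libraries and at 18 counts in BR SI-2 replicate 2. The collagen receptor chains were low, with ITGA2, ITGA10 and ITGA11 between 0.09 and 0.79 FPKM and ITGA1 between 1 and 13 counts. Leukocyte integrins showed 1 chain without its partner. ITGAX, which encodes CD11c, had a mean of 18.3 FPKM (9.16 to 24.9), but ITGB2, the beta 2 chain with which CD11c forms its known integrin, had 0 to 3 counts per library, and so did not rise above 0.06 FPKM. ITGAM reached at most 6.05 counts and ITGAL 13.8 to 34.3 counts.

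**Figure D1:**
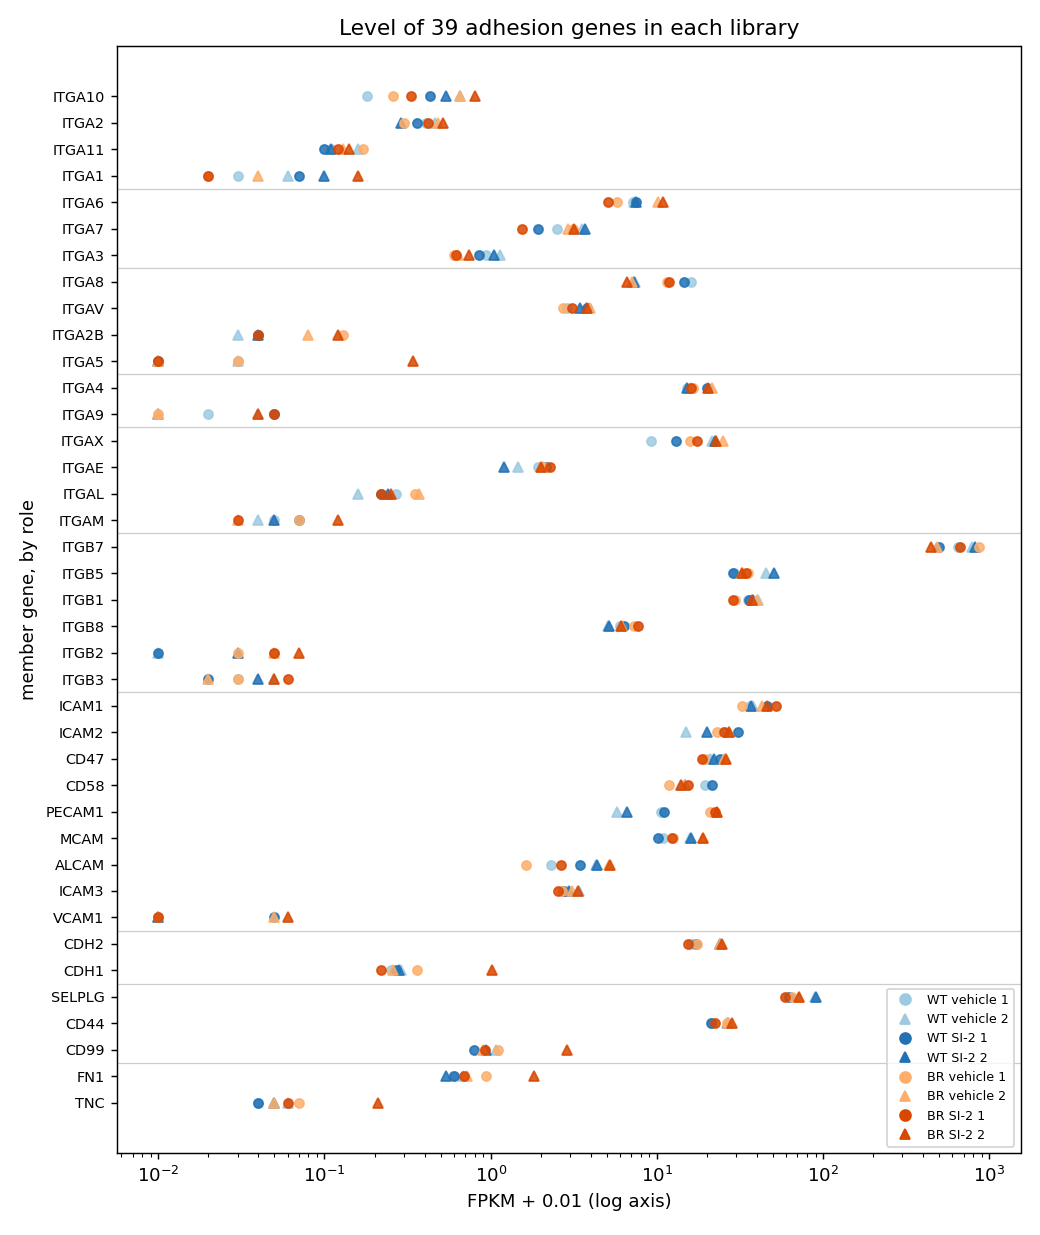
FPKM plus 0.01, on a log axis, of the 39 adhesion genes in each of the 8 libraries, grouped by role from collagen-binding alpha chains at the top to matrix proteins at the bottom. ITGB7 stands to the right of every other member, VCAM1 and ITGB2 lie at the left edge, and the dark orange triangle of BR SI-2 replicate 2 stands apart for ITGA5, CDH1, CD99, FN1 and TNC.

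The remaining receptors of this set were ALCAM, the ligand of CD6, at 1.62 to 5.24 FPKM, ICAM3 at 2.53 to 3.40, MCAM (CD146) at 10.1 to 19.0 and CD58, the ligand of CD2, at 11.8 to 21.3. CD99 was at 0.78 to 1.10 FPKM in 7 libraries and 2.86 in BR SI-2 replicate 2. CDH1 (E-cadherin) behaved alike, with 18.1 to 29.4 counts in 7 libraries and 88.6 in that one. The matrix protein genes did too. FN1 (fibronectin) had 77 to 138 counts elsewhere and 274 there, and TNC (tenascin C) 4.24 to 8.96 counts elsewhere and 32.0 there. Each of these 4 genes was highest in the library with stroma and epithelium transcripts. VCAM1, ITGA9, ITGB3 and ITGA2B had no more than 7 counts in any library. With ITGA1, ITGA5, ITGAM, ITGB2 and TNC, they were the 9 members too low to enter the tests, which left 30.

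The first comparison asked which adhesion genes differed between BR and WT cells. PECAM1 (CD31), an immunoglobulin-fold receptor that binds itself across cells and also binds CD38, was the member with the largest difference. In WT cells it stood at 43.2 and 26.2 CPM (counts scaled to library size with TMM factors) with vehicle, replicates 1 and 2, and at 46.5 and 28.2 CPM with SI-2. In BR cells it stood at 83.3 and 91.3 CPM with vehicle and 89.3 and 88.3 CPM with SI-2. Every BR library was above every WT library, and the BR libraries were closer to one another than the WT libraries, whose replicates 2 were the lowest of the 8. The log2 difference was 1.29 ± 0.18 (SE), or 2.44-fold, over 4 against 4 libraries, and it was 1.93-fold among libraries numbered 1 and 3.30-fold among those numbered 2. Because this contrast chose the gene, no test is attached to it. As background, edgeR put 0.362% of 13520 genes past an adjusted p of 0.05 between the lines over all 8 libraries, and 0% and 0.00720% of 13896 under vehicle and under SI-2 alone. The members past it were 1 of 30, PECAM1 itself, and 0 and 0, and nothing is read from these counts. These are bulk libraries, in which fewer cells of a type and less RNA per cell cannot be told apart.

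At the transcript level the table listed several PECAM1 forms, whose counts were estimated from shared reads and are therefore uncertain. The curated form NM_000442.4 had 169 and 143 counts with vehicle and 179 and 133 with SI-2 in WT cells, against 246 and 349, and 283 and 316, in BR cells. A predicted form, XM_017024738.1, had 161 and 0 counts and 98.6 and 0 in WT cells, and 592 and 439, and 505 and 522, in BR cells. For both forms all BR libraries were above all WT libraries, and the predicted form was listed at 0 in both WT libraries numbered 2. Of the 10 forms listed, XM_011524889.2 also separated the lines (48.1 to 199 counts in WT and 222 to 366 in BR cells). In the remaining forms the BR and WT libraries overlapped.

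FN1 and ITGA3 were the other members whose BR and WT libraries did not overlap, so that 3 of 30 members separated the lines, beside 8.43% of the 12624 genes with at least 20 mean counts. FN1 in WT cells was at 4.43 and 5.54 CPM with vehicle and 4.89 and 4.28 with SI-2, and in BR cells at 7.79 and 5.62 with vehicle and 5.70 and 14.3 with SI-2. The BR libraries were higher, but by little over WT vehicle replicate 2 in 2 of 4 libraries, and the highest was BR SI-2 replicate 2. Its log2 difference was 0.80 ± 0.29 with that library and 0.41 without it. ITGA3, an alpha chain of laminin receptors, was the reverse case. It was at 4.83 and 5.76 CPM with vehicle and 4.06 and 5.17 with SI-2 in WT cells, and at 3.11 and 3.08, and 3.18 and 3.50, in BR cells, a log2 difference of -0.62 ± 0.16 (-0.67 without BR SI-2 replicate 2). The same 3 genes did not overlap when that library was left out.

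**Figure D2:**
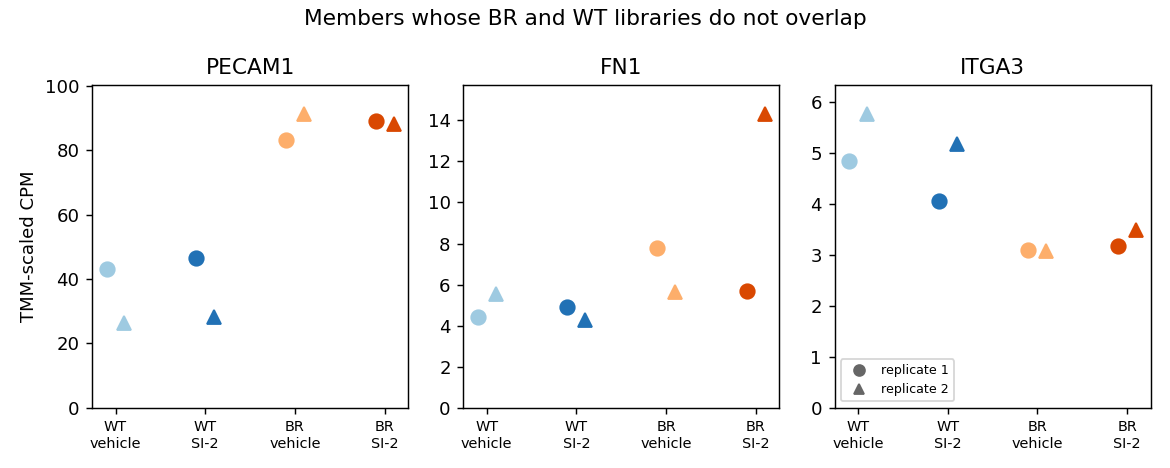
TMM-scaled CPM, from 0, of PECAM1, FN1 and ITGA3 in each library, with circles for replicate 1 and triangles for replicate 2 in each condition. All BR points of PECAM1 lie at 83.3 CPM or above and all WT points at 46.5 or below, and the BR excess of FN1 is widest in 1 triangle, BR SI-2 replicate 2 at 14.3 CPM.

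The BR and WT libraries of the other 27 tested members overlapped. CDH1 had the highest log2 difference among these, 0.74 ± 0.45, with 4.64 CPM in BR SI-2 replicate 2. It was at 0.986 to 1.64 CPM in the other BR libraries and at 1.14 to 1.38 CPM in WT cells. Among libraries numbered 1 the BR level of CDH1 was 1.09-fold the WT level. Over the 30 members 17 log2 differences were above 0 and 13 below, with a median of 0.11 against 0.00 over all genes. CD58 had the next lowest value after ITGA3, -0.35 ± 0.14, with WT libraries at 25.0 and 18.4, and 26.5 and 18.5 CPM, and BR libraries at 15.4 and 18.1, and 18.9 and 16.9 CPM, which overlapped. The direction between lines was not shared by the 2 replicate numbers for 12 of 30 members, ITGB7 among them. The share over all genes was not counted, so nothing about adhesion genes as a set is read from this. The median log2 difference was 0.10 over 37 integrin activators and adaptors and -0.01 over 16 other adhesion receptors of plasma cells. It was -0.02 over 14 ligands and partners, -0.07 over 6 tetraspanins and 0.03 over 11 junction proteins. Among the receptors CD48 was the lowest, at -0.98 ± 0.18, and at -0.88 without BR SI-2 replicate 2.

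**Figure D3:**
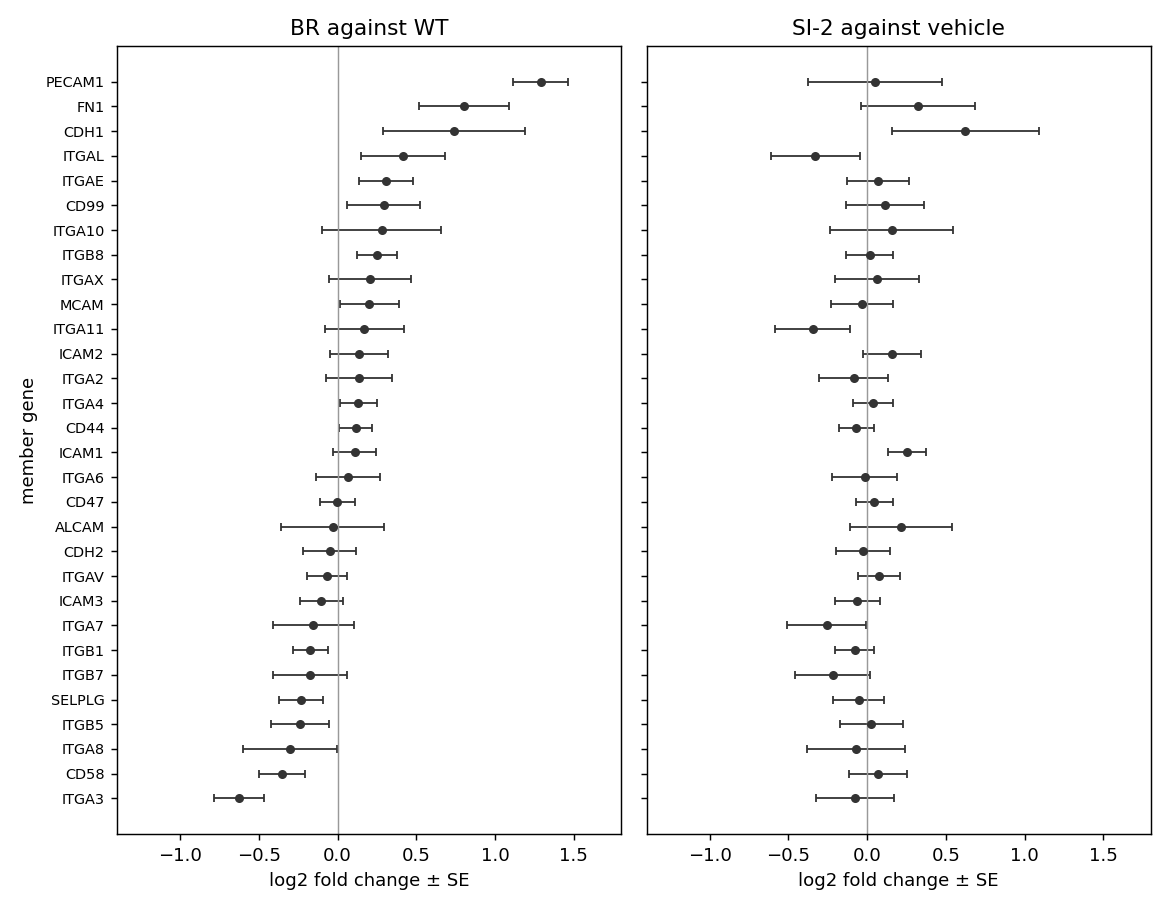
Log2 fold change with its standard error of the 30 tested members, in one order in both panels, for BR against WT (left) and SI-2 against vehicle (right), each over 4 against 4 libraries. PECAM1 at 1.29 has the highest value on the left, and the values on the right lie between -0.35 and 0.62.

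The second comparison set the 4 libraries numbered 2 against the 4 numbered 1, across all conditions, to ask which members differed between libraries of one condition. By edgeR's quasi-likelihood test 3 of 30 members passed, beside 0.925% of all genes. CDH2 and MCAM were higher in replicate 2 (0.592% of all genes were called in that direction) and ITGA8 was lower (0.333%). CDH2, which joins plasma cells to osteoblasts and other N-cadherin-bearing cells, was at 68.2 and 98.5 CPM in WT vehicle replicates 1 and 2, 69.2 and 98.2 under WT SI-2, 72.2 and 92.7 under BR vehicle, and 63.9 and 94.0 under BR SI-2. Every replicate 2 library was higher than every replicate 1 library, by 0.49 ± 0.08 on the log2 scale (adjusted p = 0.0375, edgeR). MCAM, an endothelial and stromal adhesion receptor, was at 39.8 and 57.9, 36.3 and 58.1, 45.1 and 66.1, and 46.5 and 63.4 CPM in the same order. It was higher in replicate 2 in each condition, by 0.55 ± 0.10 (adjusted p = 0.0433, edgeR). ITGA8, the alpha chain of the nephronectin and fibronectin receptor alpha 8 beta 1, was at 113 and 52.2, 101 and 52.0, 81.8 and 48.2, and 84.4 and 43.9 CPM. It was lower in replicate 2 throughout, with a log2 difference of -0.96 ± 0.12 (adjusted p = 0.0279, edgeR).

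These calls did not hold under every alternative. With condition terms in the fit, or with the vehicle and SI-2 libraries of one line and number summed, 0 members were called. These vehicle and SI-2 libraries deviated together from their condition means (r = 0.52 over genes in WT and 0.46 in BR cells). The 4 libraries a side may therefore not be independent, and the p-values may be too small. Across lines r was -0.20 to 0.21, so a replicate number need not mean the same thing in WT and BR cells. Leaving out WT SI-2 replicate 1 left 3 members called, CDH2, ITGA8 and ALCAM, and leaving out any other single library, WT vehicle 1 or 2, WT SI-2 2, BR vehicle 1 or 2, or BR SI-2 1 or 2, left 0. The fold changes of CDH2, MCAM and ITGA8 stayed within 0.46 to 0.53, 0.49 to 0.60 and -1.01 to -0.85 through these. Upper-quartile scaling and DESeq2 each called 6 members, adding ALCAM, ITGA10 and ITGAX.

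Among CDH2 transcripts, that of the internal start varied most. NM_001308176.1, which begins near the internal window printed above, had 22.6 and 468 counts in WT vehicle replicates 1 and 2, 68.5 and 584 under WT SI-2, 447 and 681 under BR vehicle, and 409 and 616 under BR SI-2. Its counts were lowest in the WT libraries numbered 1 and at least 409 in every other library. NM_001792.4, of the upstream start, had 420 and 547, 365 and 542, 280 and 496, and 420 and 494 counts, again higher in each replicate 2 but over a narrower range. A predicted form, XM_011525788.1, had 338 to 807 counts and was lower in replicate 2 for 2 conditions, BR vehicle and WT SI-2, and higher for the others. Most MCAM counts belonged to NM_006500.2 (555 to 1065) and most ITGA8 counts to NM_003638.2 (547 to 1647). These are descriptions, since the estimates divide shared reads.

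In all, 10 of 30 members did not overlap between replicate numbers, 8 higher and 2 lower in replicate 2, beside 12.3% of all genes with at least 20 mean counts (6.03% higher and 6.24% lower). Without BR SI-2 replicate 2 there were 11, ITGB1 being added. ITGA10, a collagen receptor chain, was at 0.910 and 2.71, 1.59 and 2.28, 1.24 and 2.97, and 1.59 and 3.29 CPM in the same order of conditions, a log2 difference of 1.07 ± 0.22 (adjusted p = 0.0558, edgeR). ALCAM was at 11.5 and 21.5, 16.9 and 22.0, 8.24 and 24.6, and 12.9 and 24.6 CPM, with replicate 1 of BR vehicle the lowest, and differed by 0.90 ± 0.18 (adjusted p = 0.0539, edgeR). ITGAX was at 41.3 and 94.5, 54.2 and 97.3, 64.7 and 102, and 74.3 and 90.1 CPM, and differed by 0.71 ± 0.16 (adjusted p = 0.0623, edgeR). Without BR SI-2 replicate 2 the differences of ITGA10, ALCAM and ITGAX were 0.99, 0.87 and 0.74. For each of these 3 genes the step from replicate 1 to 2 had one sign in all conditions, although its size varied.

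SELPLG, ICAM3 and ITGB8 had smaller steps. SELPLG was at 167 and 235, 159 and 236, 172 and 178, and 155 and 174 CPM, so that WT libraries numbered 2 were highest and the step in BR cells was narrow. ICAM3 was at 6.25 and 7.59, 6.10 and 6.62, 6.04 and 6.31, and 5.59 and 6.78 CPM, the groups being separated by a narrow gap. ITGB8, the TGF-beta-activating partner of ITGAV, was at 53.4 and 44.8, 54.3 and 45.3, 65.3 and 51.8, and 67.7 and 50.4 CPM, lower in each replicate 2. ITGA6 completed the 10. Among the fixed lists of related genes, PTK2B, a kinase related to focal adhesion kinase, and CD38, the PECAM1 partner, passed the threshold as lower in replicate 2 (log2 differences -0.71 ± 0.10 and -0.68 ± 0.11, adjusted p = 0.0339 and 0.0375, edgeR), and the tetraspanin TSPAN4 as higher (0.51 ± 0.10, adjusted p = 0.0438, edgeR). Without BR SI-2 replicate 2 the differences of PTK2B, CD38 and TSPAN4 were -0.72, -0.63 and 0.47, and none of the 3 passed (adjusted p = 0.0814, 0.0871 and 0.111, edgeR). CD38 stood at 263 and 196, 255 and 193, 321 and 183, and 337 and 165 CPM, and every replicate 2 library was below every replicate 1 library.

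**Figure D4:**
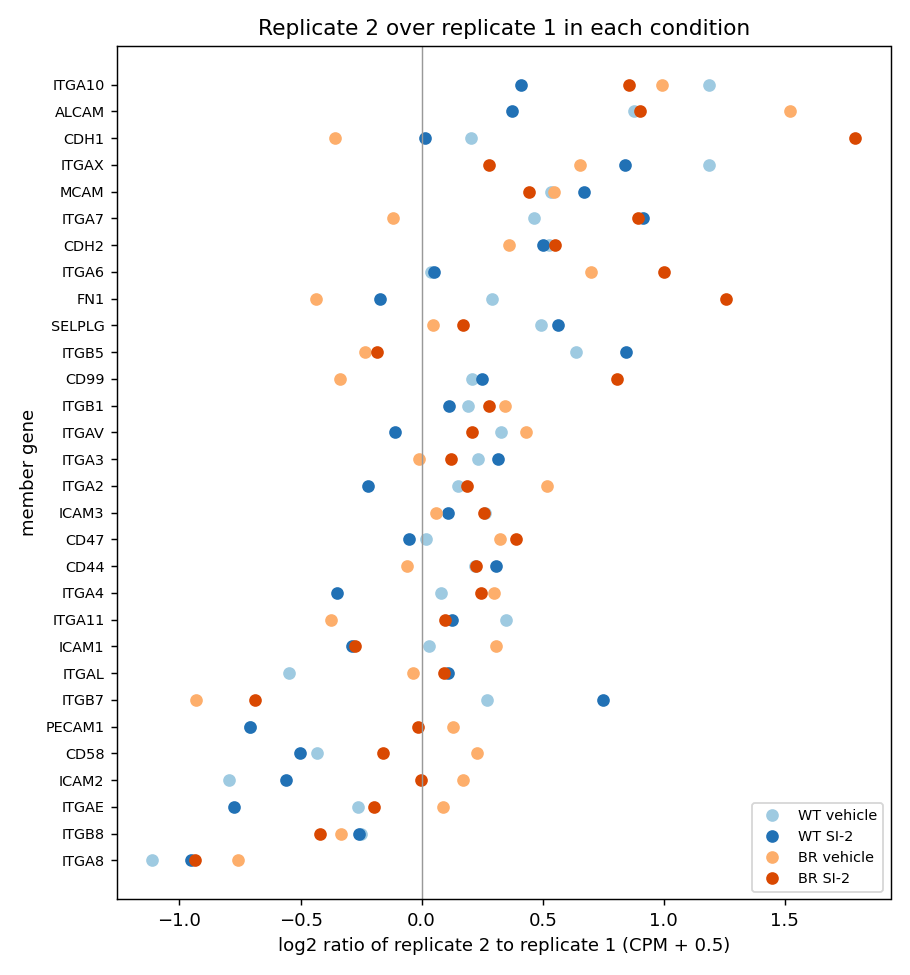
Log2 ratio of replicate 2 to replicate 1 (CPM plus 0.5) in each of the 4 conditions, for the 30 tested members ordered by their fitted difference. The 4 points of ITGA10, ALCAM, MCAM and CDH2 lie to the right of 0 and those of ITGA8 and ITGB8 to the left, whereas the blue WT and orange BR points of ITGB7 and ITGB5 fall on opposite sides.

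ITGB7, the most abundant member, moved in opposite directions with replicate number in the lines. In WT cells it was at 1889.9 and 2282 CPM with vehicle and 1423 and 2391 with SI-2, higher in each replicate 2. In BR cells it was at 2569 and 1349 CPM with vehicle and 1939 and 1203 with SI-2, lower in each replicate 2. BR cells were thus 1.36-fold higher than WT cells among libraries numbered 1 and 0.546-fold among those numbered 2. The difference of the 2 steps, examined after these values were seen, was -1.32 ± 0.23 on the log2 scale (adjusted p = 0.0223, edgeR, line by replicate interaction).

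ITGB5 and ITGA6 also passed this test. With PECAM1, which was chosen on its values in these libraries, 4 of 30 members did, beside 6.32% of the 13896 genes tested. ITGB5 was at 98.2 and 153 CPM with vehicle and 95.2 and 171 with SI-2 in WT cells, and at 120.1 and 102, and 115 and 101, in BR cells, a difference of steps of -0.96 ± 0.13 (adjusted p = 0.0113, edgeR). The WT step was upward and the BR step slightly downward. ITGA6 was at 39.9 and 40.9, and 39.9 and 41.4 CPM in WT cells, and at 32.6 and 53.3, and 27.7 and 56.0, in BR cells (0.81 ± 0.15, adjusted p = 0.0235, edgeR), so that its step belonged to BR libraries. For PECAM1 the step belonged to WT libraries, with the values given above (0.77 ± 0.13), and nothing is read from its call. This test took the vehicle and SI-2 libraries of one line and number as replicates. These libraries deviated together, as given above, and if they shared a culture, which the labels do not say, the p-values are too small. With them summed, 1 library would remain for each line and number, which leaves no spread to test against. No member passed it without any one of the replicate 2 libraries (WT vehicle, WT SI-2, BR vehicle or BR SI-2), and 1, ITGB5, without WT SI-2 replicate 1. DESeq2 called 6, adding ICAM2 and SELPLG.

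**Figure D5:**
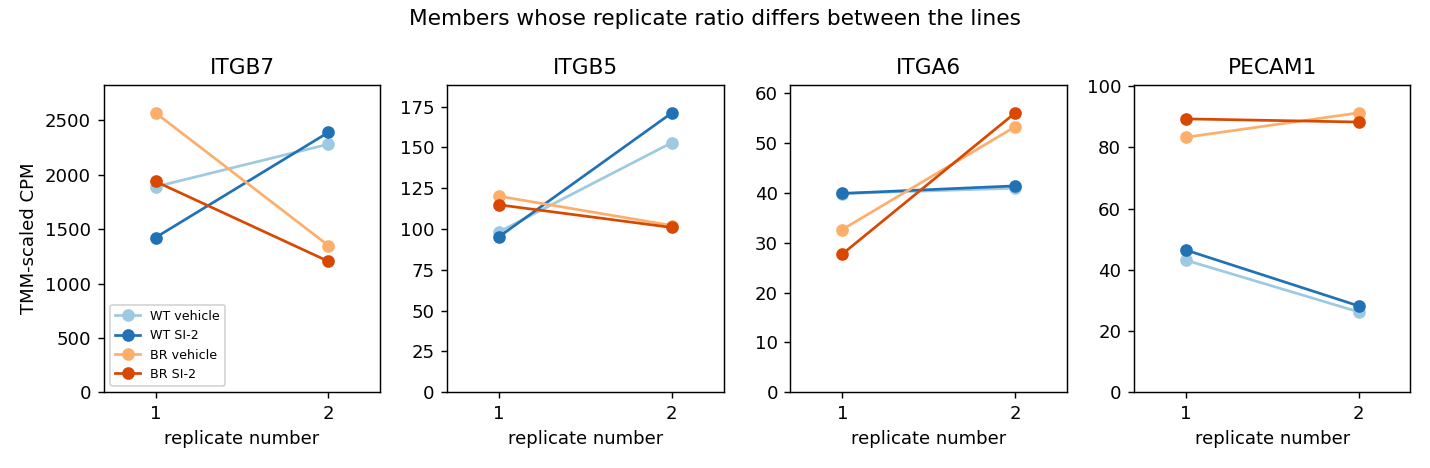
TMM-scaled CPM, from 0, of ITGB7, ITGB5, ITGA6 and PECAM1 against replicate number, with one line for each condition. For ITGB7 the blue WT lines climb to 2282 and 2391 CPM while the orange BR lines descend to 1349 and 1203. The vehicle and SI-2 lines of one cell line slope the same way, though some cross or lie apart. The exception is PECAM1 in BR cells, at 83.3 to 91.3 CPM with vehicle and 89.3 to 88.3 with SI-2.

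The remaining members among the 10 most abundant had overlapping groups in each of the 3 comparisons. ITGB1 was at 138.5 and 158, and 137 and 148 CPM in WT cells and at 117 and 149, and 113 and 136, in BR cells, higher in replicate 2 in each condition but with overlap. CD44 was at 99.2 and 116, and 92.9 and 115 CPM in WT and at 120.4 and 115, and 102 and 119.6, in BR cells. CD47 was at 115 and 117, and 129 and 124 CPM in WT cells, where the replicates were close, and at 109 and 136, and 104 and 136, in BR cells, where each replicate 2 was higher. ICAM2 was at 30.0 and 17.1, and 34.7 and 23.4 CPM in WT cells, falling with replicate number like PECAM1, and at 26.9 and 30.3, and 29.2 and 29.1, in BR cells. The line by replicate difference of ICAM2 did not pass the threshold (0.76 ± 0.21, adjusted p = 0.0692, edgeR).

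The third comparison asked whether SI-2 changed adhesion genes. No member passed the test over 4 SI-2 and 4 vehicle libraries with edgeR, 0 had an unadjusted p under 0.05, and DESeq2 also called 0. Over all 13520 genes edgeR called 0 (0%), with 300 (2.22%) at an unadjusted p under 0.05. None of 30 members had SI-2 libraries that did not overlap the vehicle libraries, beside 1.34% of all genes. ICAM1, a known target of inflammatory signalling, was among the members with the highest values. It was at 122 and 124 CPM with vehicle and 149 and 122 with SI-2 in WT cells, and at 109 and 135 with vehicle and 172 and 142 with SI-2 in BR cells. SI-2 libraries were higher in 3 of 4 pairs of one line and number, with 172 CPM in BR replicate 1 the highest, and the groups overlapped (0.25 ± 0.12 on the log2 scale, adjusted p = 0.999, edgeR, and 0.27 without BR SI-2 replicate 2). ITGB7 was lower with SI-2 in 3 of 4 pairs and higher in WT replicate 2 (-0.22 ± 0.24, and -0.08 without BR SI-2 replicate 2). PECAM1 hardly moved, its SI-2 to vehicle ratios in the 4 pairs lying between 0.967 and 1.08. CDH1 had the highest fold change, 0.62 ± 0.47, which rested on BR SI-2 replicate 2, since its ratios were 1.11, 0.924 and 0.602 in the other pairs and 3.98 in that one. Without that library it was -0.18.

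With the 4 conditions fitted separately, edgeR called 0 of 30 members for SI-2 in WT cells, for SI-2 in BR cells and for the difference between these effects, and 0 genes of 13896 (0%), and at an unadjusted p under 0.05 stood 74 (0.533%), 167 (1.20%) and 74 (0.533%) genes, no member among them. DESeq2 called 0 members in each.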

How the data were processed

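RNA was sequenced on BGISEQ-500 from 8 LP-1 libraries, 2 in each condition. The authors deposited estimated counts per gene and per transcript and FPKM values. The submitters' processing notes name BWA, Bowtie2, RSEM and hg19, with no versions or roles. Deposited columns of the authors' own comparisons (fold changes and p-values of SI-2 against vehicle) and of condition averages were not used. Members and gene lists were chosen with earlier results of these data known.

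Estimated counts were rounded, filtered with filterByExpr, scaled by TMM (factors 0.972 to 1.06) and tested in edgeR 4.0.16 (R 4.3.3; glmQLFit in its default form, glmQLFTest), with Benjamini-Hochberg adjustment over all genes tested and a threshold of 0.05. Fits used 4 against 4 libraries (13520 genes) or the 4 conditions (13896 genes). The line by replicate interaction was added after seeing the data. SE was the log2 fold change divided by the square root of F. Alternatives were upper-quartile scaling, library size only, no filter, a filter of 1 CPM in 2 libraries, DESeq2 1.42.0, limma 3.58.1 on log2(FPKM + 1) and log2(FPKM + 0.1), a replicate block, condition terms and leaving out each library. Each step was tested on simulated data.

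Full values were given for PECAM1, members called in a comparison, members of at least 20 mean counts whose libraries did not overlap, and the 10 of highest FPKM. CD58, CDH1, CD99, TNC, ITGA5 and the split of ITGA4 and ITGAE were singled out after their values were seen. Promoters were read from RefSeq windows, and transcripts were placed through GENCODE version 29. Figures were drawn with matplotlib. Results for 2 genes of the marker and context lists are not reported here.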

Additional observations from a re-analysis of the deposited data

Results flagged for a closer look

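The replicate 2 to 1 step of 4 of 30 members passed the line by replicate interaction test, beside 6.32% of all genes, the value being the step in BR minus that in WT on the log2 scale: -1.32 for ITGB7, -0.96 for ITGB5, 0.81 for ITGA6 and 0.77 for PECAM1. PECAM1 is counted although it was chosen on its values in these libraries, and nothing is read from its call. ITGB7 fell in both BR pairs and rose in both WT pairs, and the test lost all 4 calls without any one of the replicate 2 libraries. The test took as replicates the vehicle and SI-2 libraries of one line and number, which deviated together (r = 0.52 in WT and 0.46 in BR cells), so its p-values may be too small.

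A library far from the others of its line was found in 2 of the 60 groups of 4 examined, 1 in 20 being the rate by chance. ITGA7, a laminin receptor chain, was at 6.08 CPM in BR SI-2 replicate 1 against 11.2 to 12.2 CPM in the other BR libraries. ICAM1 was at 149 CPM in WT SI-2 replicate 1 against 122 to 124 CPM in the other WT libraries.

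Genes outside the comparisons were raised in BR SI-2 replicate 2. The summed FPKM of 7 stroma markers was 28.1 there against 0.07 to 0.16 in the other 7 libraries, and that of 4 epithelium markers was 6.97 against 2.33 to 3.13. By CPM, FN1, CDH1, CD99, TNC, ITGA5 and ITGA1 had their highest values in the same library. So did ITGA2, ITGA6, ITGA10, ITGAM, ITGB2 and VCAM1, and the share of all genes highest there was not counted. Whether the one set of values bears on the other was not tested.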

How the results depend on the processing

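PECAM1 was chosen on BR against WT, so counts of calls in that contrast are given without reading anything from them: 1 member, 0 with condition terms, 0 with summed vehicle and SI-2 libraries (added after seeing the data), 1 without each library in turn, and by DESeq2 1 under vehicle and 1 under SI-2. The PECAM1 fold change ran from 1.17 to 1.44 over 19 settings. For replicate 2 against 1, upper-quartile scaling and DESeq2 each called 6 members, condition terms and summed libraries each 0, and leaving out each library gave 0 to 3. For the line by replicate interaction, leaving out each library gave 0 to 6 members. The summed fit rests on 2 against 2 libraries. The cause of the other changes was not tested. Of the fold changes followed through every alternative none reversed. That of CDH1 with SI-2, followed without BR SI-2 replicate 2 alone, turned from 0.62 to -0.18. Over all genes, DESeq2 called 408 for BR against WT, 778 between replicate numbers and 1397 for the interaction, where edgeR called 49, 125 and 878. SI-2 comparisons called 0 members under every alternative, the line and replicate block (added after seeing the data) included.

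With the replicate block, 1 member was called for BR against WT and 0 in each other comparison where it applies, as without it. Deviations from the condition mean correlated at 0.52 within WT and 0.46 within BR cells, between the vehicle and SI-2 libraries of one number. Across lines they correlated at -0.20 to 0.21, so a replicate number need not mean the same thing in WT and BR cells. Depth limits the 9 untested members and those near 20 counts.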

Other observations

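ITGB7 and CD44 were spread over several transcripts, whose estimates divide shared reads and were not tested. The curated ITGB7 form NM_000889.2 had 19060 to 37788 counts per library, or 76.7% to 83.6% of the gene. The predicted forms XM_005268851.4 and XM_005268852.5 had 1649 to 3852 and 1789 to 4082. All 3 forms were lower in replicate 2 than in replicate 1 in both BR conditions. In WT cells NM_000889.2 was higher in replicate 2 in both conditions. The predicted forms were higher there with SI-2 and slightly lower with vehicle (2994 to 2894 and 2716 to 2599 counts). CD44 was led by NM_001001391.1 at 414 to 566 counts, with 9 further forms of at least 20 mean counts. The ITGAX form NM_000887.4, at 478 to 998 counts, was higher in replicate 2 in each condition. It led in WT libraries and in BR libraries numbered 2. In BR vehicle and BR SI-2 replicate 1 the predicted form XM_024450263.1 was above it (530 against 494 and 643 against 575).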
